A study of Mus musculus with 2 samples.

Results

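The engrailed genes En1 and En2, the homeobox genes Barhl1, Otx2, Gbx2, Lmx1a and Lmx1b, and the paired-box genes Pax2 and Pax3 pattern the midbrain, the hindbrain, the roof plate and the dorsal neural tube. These 9 transcription factor genes were picked by name as regulators of regions outside the cerebral cortex, out of 21851 protein-coding genes. The choice, and that of the gene lists set beside them, was made with earlier results of these data known. The shares below therefore describe these genes and test nothing. Each was examined over its gene body and 50 kb on either side, which is called its locus. The measurement was DNase-seq, in which DNase I cuts open chromatin in nuclei and the cut ends are sequenced. The samples form 1 group: untreated female mice of the F1 hybrid strain B6CASTF1/J at postnatal day 4, from which the left cerebral cortex was taken. There were 2 libraries, replicate 1 and replicate 2, whose labels carry different animal numbers and a single donor record for the strain. The tissue is a whole dissected piece, so a low value cannot tell fewer open cells from less openness in each cell.

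Otx2 and Gbx2 meet at the boundary of midbrain and hindbrain, where each holds back the expression of the other in the embryo. Pax2, En1 and En2 are switched on around that boundary, Lmx1a and Lmx1b act in midbrain dopaminergic progenitors, and Barhl1 marks cerebellar granule cells. Cell types that do not use such regulators often keep them silent under Polycomb repression, over long stretches of CpG-rich DNA.

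A promoter DHS is a DNase I hypersensitive site within 1 kb of a start site. In the stricter of the pair of peak lists that each library has, no member had one called in both libraries. In the longer lists En2 alone did. All 9 had CpG-richer promoters, a class of which 90.4% of genes had such a DHS in the stricter lists. Where CpG-rich DNA covered 4000 bp or more, as at 7 members, the share was 51.9%. The 9 DHSs that both stricter lists held in these loci all lay away from start sites. By mean percentile over both libraries, the strongest were 93.4 kb downstream of the Lmx1b start, 44.1 kb upstream of Lmx1a and 7.42 kb upstream of Barhl1.

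The sequences of 6 of the 9 shared DHSs are printed first, since they carry the openness that both animals showed. They are given on the plus strand of mm10, and capitals mark bases inside a footprint of both libraries. A footprint is a short stretch within a cut region that the enzyme spared, as listed in the deposited files. The intervals are chr2:33547041-33547240 (the replicate 2 call) and chr2:33690235-33690368 for Lmx1b, chr1:167645001-167645200 for Lmx1a, chr2:28924011-28924170 for Barhl1, chr5:28123152-28123347 for En2 and chr14:48709821-48710082 for Otx2. All 6 lie outside the gene that names them; that of Otx2 falls in an intron of the long noncoding RNA gene Otx2os1.
Lmx1b +93.4 kb: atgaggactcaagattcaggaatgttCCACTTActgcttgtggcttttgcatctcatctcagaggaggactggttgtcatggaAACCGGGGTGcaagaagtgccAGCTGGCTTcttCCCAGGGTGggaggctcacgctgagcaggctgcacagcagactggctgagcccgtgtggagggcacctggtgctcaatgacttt
Lmx1a -44.1 kb: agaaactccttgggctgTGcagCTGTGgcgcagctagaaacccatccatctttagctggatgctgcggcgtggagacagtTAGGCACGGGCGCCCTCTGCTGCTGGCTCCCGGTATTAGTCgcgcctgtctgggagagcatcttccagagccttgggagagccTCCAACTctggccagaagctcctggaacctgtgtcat
Barhl1 -7.4 kb: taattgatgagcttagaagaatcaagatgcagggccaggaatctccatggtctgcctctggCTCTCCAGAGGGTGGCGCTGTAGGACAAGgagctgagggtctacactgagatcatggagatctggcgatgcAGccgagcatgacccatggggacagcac
En2 -42.4 kb: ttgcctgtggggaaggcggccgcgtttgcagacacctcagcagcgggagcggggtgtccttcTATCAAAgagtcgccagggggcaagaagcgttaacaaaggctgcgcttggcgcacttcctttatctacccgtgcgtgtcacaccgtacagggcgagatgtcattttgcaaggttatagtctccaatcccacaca
Lmx1b -49.8 kb: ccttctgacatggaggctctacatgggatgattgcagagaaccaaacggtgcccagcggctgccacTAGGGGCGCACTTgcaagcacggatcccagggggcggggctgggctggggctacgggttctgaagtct
Otx2 -36.1 kb: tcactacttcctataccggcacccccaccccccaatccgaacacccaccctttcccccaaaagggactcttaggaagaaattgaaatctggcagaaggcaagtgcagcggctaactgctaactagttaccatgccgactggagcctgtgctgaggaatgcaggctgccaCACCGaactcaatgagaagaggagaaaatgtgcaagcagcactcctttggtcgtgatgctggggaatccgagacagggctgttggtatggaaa

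Capitals covered 55 of 200 bases in the Lmx1a sequence, 35 of 200 in the stronger Lmx1b sequence and 31 of 160 in the Barhl1 sequence. They covered 13 of 134 bases in the upstream Lmx1b sequence, 7 of 196 in the En2 sequence and 5 of 262 in the Otx2 sequence. In each of the first 3 the protected letters stand mostly near the middle, and the printed sequences of En2 and Otx2 have the fewest. The Lmx1a DHS at 113 kb, whose sequence is not shown, had no such base, although its column 7 was higher than that of both. A site of a different kind lies in the last exon of En1, 4.74 kb from its start. Its replicate 1 call, chr1:120607055-120607180 on the plus strand, is coding sequence throughout, and no base of it was in a footprint of both libraries.
En1 +4.7 kb: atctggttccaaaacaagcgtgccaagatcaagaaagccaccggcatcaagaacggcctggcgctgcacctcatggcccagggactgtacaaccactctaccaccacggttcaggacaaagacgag

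A pair of promoters shows the contrast at the start sites. The En2 promoter had the strongest calls of the 9. Its lower stricter call, of replicate 2, overlapped no call of replicate 1 in either kind of list. The sequence from the edge of that lower call to the start site, chr5:28165519-28165693 on the plus strand of mm10, holds 18 CpGs. Capitals there mark bases in a footprint of replicate 2, since replicate 1 listed none in this interval. The Gbx2 promoter had no call in any list. Its 250 bases before the start, chr1:89931177-89931426 on the minus strand, come from RefSeq on GRCm38.p6, the build that mm10 names, and capitals mark its 18 CpGs. RefSeq promoters were matched by symbol for 7 of the 9 genes.
En2 promoter: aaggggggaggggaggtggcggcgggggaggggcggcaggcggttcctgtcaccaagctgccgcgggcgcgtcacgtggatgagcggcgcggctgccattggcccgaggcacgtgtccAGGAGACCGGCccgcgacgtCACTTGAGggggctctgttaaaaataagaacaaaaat
Gbx2 promoter: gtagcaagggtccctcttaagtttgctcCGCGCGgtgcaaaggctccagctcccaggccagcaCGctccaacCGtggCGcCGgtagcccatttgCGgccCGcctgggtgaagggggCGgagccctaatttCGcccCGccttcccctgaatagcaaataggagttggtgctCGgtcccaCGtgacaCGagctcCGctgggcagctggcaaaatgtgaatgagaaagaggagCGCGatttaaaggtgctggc

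The first question was whether the start sites of these genes were open in the neonatal cortex. Each library comes with a pair of peak lists of unequal length, taken here as a stricter and a longer list. In replicate 1, none of the 9 members had a promoter call in the stricter list, against 57% of all protein-coding genes and 91% of the CpG-richer ones. In replicate 2, 2 of 9 had one, En2 and Otx2, against 60.2% of all genes and 93.7% of the CpG-richer ones. In both libraries together the count was 0 of 9, against 55.9% of all genes, 90.4% of the CpG-richer ones and 26.6% of the CpG-poor ones. Of the CpG-richer genes, 5.67% (569 of 10041) had a promoter call in neither stricter list, and 7 of the 9 members were among them.

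The calls of replicate 2 were weak. En2, which shapes the midbrain and cerebellum, had promoter calls of 0.851 and 0.922 in column 7, the authors' signal value of a call. Replicate 1 had no stricter call there. The higher En2 call stood at percentile 5.40 of all genes with a promoter call in that library. Otx2, which specifies forebrain and midbrain, had a call of 0.630, at percentile 1.68. The Otx2 call sat just inside 1 kb of a start site in the gene body, 1 of its 5 start sites. Over all genes with a promoter call, the median of column 7 was 1.56 in replicate 1 and 4.08 in replicate 2.

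The longer lists added a few more weak calls. In replicate 1 they held promoter calls of En2, at 0.663, and of Lmx1a, a roof plate and dopaminergic regulator, at 0.504. In replicate 2 they held En2 at 0.922, Barhl1 at 0.835, Otx2 at 0.677 and Pax2, a regulator of the boundary region, at 0.630. En2 was thus the only member with a promoter call in both longer lists, against 61.8% of all genes and 95% of the CpG-richer ones. In the longer list of replicate 1 the members numbered 2 of 9, against 63.2% of all genes and 95.6% of the CpG-richer ones. In that of replicate 2 they numbered 4 of 9, against 64.8% and 96.4%. En1, Gbx2, Lmx1b and Pax3, a regulator of the dorsal neural tube and neural crest, had no promoter call in any of the 4 lists. CpG-richer genes that lacked a stricter call in both libraries but had a longer-list call had medians of 0.532 in replicate 1 (n = 174) and 0.709 in replicate 2 (n = 221). The members of that class were Lmx1a at 0.504 in replicate 1, and Barhl1 at 0.835 and Pax2 at 0.630 in replicate 2.

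A finer measure, the false discovery rate of the cut rate at each base, showed how far cutting stood over background at these promoters. The deposited table lists runs of bases with a rate under 0.05. Bases were summed over the windows of all start sites of a gene. Otx2 has 5 start sites, Barhl1 3, Lmx1a, Pax2 and Pax3 2 each, and En1, En2, Gbx2 and Lmx1b 1 each. In En2, 433 promoter bases were listed in replicate 1 and 932 in replicate 2, with lowest rates of 0.00436 and 2.31e-07. In Barhl1 they numbered 54 and 44, with lowest rates of 0.0223 and 0.0315. In Otx2 they numbered 19 and 1740, with lowest rates of 0.0321 and 0.000431. These 3 members had a listed base in both libraries, against 62.6% of all genes and 95.4% of the CpG-richer ones.

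At Pax2 and Lmx1a a single library had listed bases. Pax2 had no listed base in replicate 1 and 1127 in replicate 2, with a lowest rate of 0.000407. Lmx1a had 212 in replicate 1, with a lowest rate of 0.00898, and none in replicate 2. En1, Gbx2, Lmx1b and Pax3 had none in either library. The medians of CpG-richer genes were 1006 bases in replicate 1 and 1085 in replicate 2. With a limit of 0.001 in both libraries no member remained, against 56.8% of all genes.

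**Figure D1:**
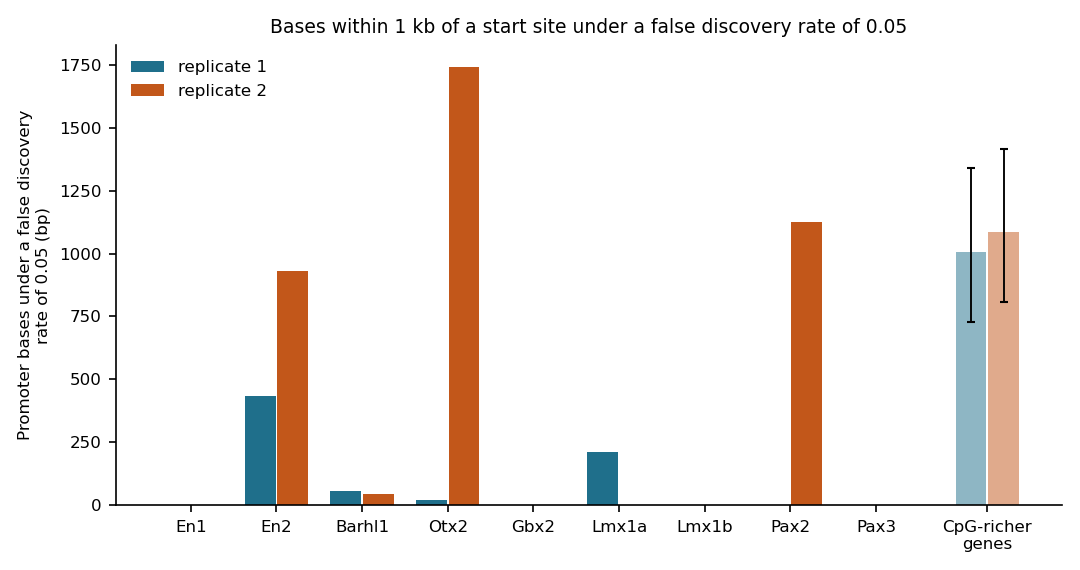
Bars give the bases within 1 kb of a start site with a listed false discovery rate under 0.05, for each of the 9 genes and both libraries; the pale bars at the right are medians of the 10041 CpG-richer genes with their quartiles as whiskers. Otx2 and Pax2 reach 1740 and 1127 bases in replicate 2 and 19 and 0 in replicate 1, and 4 of the genes have no bar. Bases are summed over all start sites of a gene, of which Otx2 has 5 and Pax2 2.

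The second question was how these promoters compare with others of like sequence. The ratio of observed to expected CpGs in 500 bp on either side of the gene start was 0.764 in En1, 1.00 in En2, 0.643 in Barhl1, 0.770 in Otx2 and 0.882 in Gbx2. It was 0.744 in Lmx1a, 0.837 in Lmx1b, 0.699 in Pax2 and 0.669 in Pax3. All 9 lay at or above the limit of 0.6 that defines a CpG-richer promoter here, which 46% of all genes passed. With windows of 250 bp 8 of the 9 passed, and with 1000 bp 7. Their median of 0.764 was close to the 0.782 of all CpG-richer genes, near the middle of that class.

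Their CpG-rich sequence was long. Within 5 kb on either side of the gene start it covered 5650 bp at Lmx1b, 5400 bp at Gbx2, 5050 bp at Pax2, 4470 bp at En2 and 4370 bp at En1. It covered 4310 bp at Pax3, 4000 bp at Barhl1, 2970 bp at Lmx1a and 2190 bp at Otx2. These extents stood at percentiles 91.4 to 99.9 of all genes, with a median of 4370 bp, against 1380 bp in CpG-richer genes and 930 bp in all genes. Regulators of other brain regions were wide too. The median was 3620 bp over 33 other patterning genes and 3800 bp over 20 dorsal forebrain genes.

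Among CpG-richer genes, the share with a promoter DHS in both libraries varied with this extent. It was 93.2% at extents of 1000 to 1500 bp (n = 3656), 88.7% at 2000 to 3000 bp (n = 1445), where Otx2 and Lmx1a lie, and 73.8% at 3000 to 4000 bp (n = 320). At 4000 bp or more, where the other 7 members lie, it was 51.9% (97 of 187), and 71.7% in the longer lists. In that widest class none of the 7 members had a promoter DHS in both stricter lists, and En2 alone had one in both longer lists. The difference between classes was not tested.

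**Figure D2:**
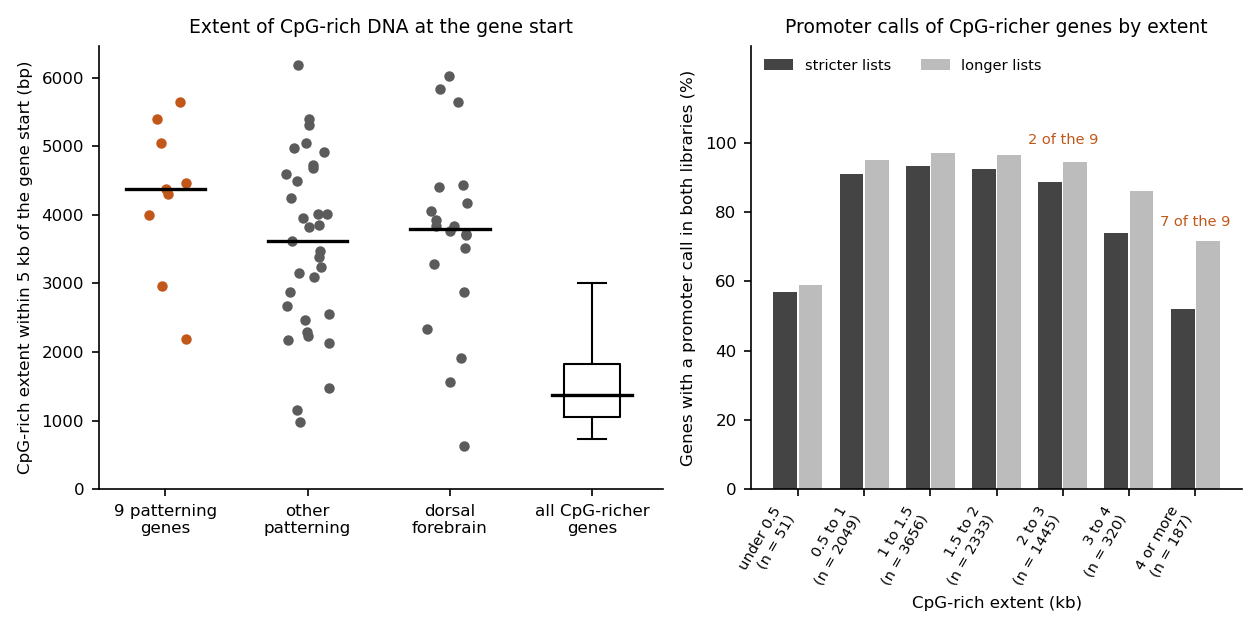
The left panel gives the CpG-rich extent within 5 kb of the gene start in bp, with points for the 9 genes, 33 other patterning genes and 20 dorsal forebrain genes, lines at the medians, and a box with quartiles and whiskers at percentiles 5 and 95 for all CpG-richer genes. The right panel gives the percentage of CpG-richer genes with a promoter call in both libraries by extent, which is 93.2% at 1 to 1.5 kb and 51.9% at 4 kb or more in the stricter lists; orange text says where the 9 genes lie.

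Regulators known from the cortex were examined by the same measure. Of 20 dorsal forebrain genes, 13 of them CpG-richer, 13 had a promoter DHS in both libraries (65%), against 55.9% of all genes and 90.4% of CpG-richer genes. In replicate 2, 18 had a stricter call and all 20 a longer-list call, against 60.2% and 64.8% of all genes. The count over both libraries is thus near the share of all genes. At the promoters of this list with a stricter call, the median of column 7 was 1.31 in replicate 1 and 2.80 in replicate 2. Over all genes with such a call the medians were 1.56 and 4.08. The 3 genes of the list with the highest mean percentile follow. Tle4, a corepressor of deep-layer neurons, had values of 3.06 in replicate 1 and 19.5 in replicate 2. Pou3f3, a POU-domain factor of upper layers, had 1.44 and 8.48, and Lhx2, a LIM homeodomain factor that selects cortical identity, had 1.32 and 5.31. Eomes and Neurog2, which act in cortical progenitors, had no stricter promoter call.

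Of 33 genes picked as regulators of other regions outside the cortex, 24 of them CpG-richer, 11 had a promoter DHS in both libraries. The share of all genes was 55.9%, and 17 of the 33 had a stricter call in neither library. Whether genes of this list also act in the cortex was not examined. The lists differ in their share of CpG-richer promoters, and the differences between them were not tested. At stricter promoter calls of these 33 genes the median of column 7 was 0.934 in replicate 1 and 1.39 in replicate 2. Egr2, among the highest of them, had 1.39 in replicate 1 and 3.34 in replicate 2. It is a hindbrain segmentation gene that is also used by other cells. Fgf8, the signal of the boundary organizer, and Foxa2 and Gata2, of the floor plate and ventral midbrain, had no call in any list.

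By presence or absence of a promoter call in the 4 lists, each member had counterparts in that list of 33 genes. En2 shared its pattern with Barhl2, Lhx5 and Tal2, and Otx2 with Lhx1 and Foxa1. Lmx1a, with a longer-list call of replicate 1 alone, shared its pattern with Otp and Pax7. Barhl1 and Pax2, with longer-list calls of replicate 2 alone, matched Irx3, Nkx2-2 and Nkx2-1. The 4 genes without a call matched, among others, Gbx1, Fgf8, Gata2, Ptf1a, Phox2a and Zic1.

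Markers of other tissue that the piece could hold were examined in the same way. Of 12 choroid plexus and cortical hem genes, where Otx2 and Lmx1a are known to be expressed, 3 had a promoter DHS in both libraries. Of the 12, 5 had CpG-richer promoters. The share was 55.9% over all genes, 90.4% over CpG-richer promoters and 26.6% over CpG-poor ones. The 3 were Steap1, with 2.20 and 3.53 in replicates 1 and 2, Rspo2 with 0.845 and 0.906, and Prlr with 0.495 and 0.693. Msx1, with 1.38, and Kl, with 0.788, had stricter calls in replicate 2 alone and longer-list calls in both, the call pattern of En2. The defining marker Ttr, and Folr1, Kcnj13 and Wnt3a, had no call in any list. Of 8 meningeal genes, 3 of them CpG-richer, Col1a1 alone had a promoter DHS in both libraries, at 1.55 and 2.76. Foxc1 and Foxd1 had stricter calls in replicate 1 alone, at 0.691 and 0.593. Their longer-list calls of replicate 2 had 1.24 and 0.882. Dcn, Lum, Col3a1 and Zic1 had no call in any list.

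Midbrain and cerebellar markers were set beside the same shares, of 55.9% over all genes, 90.4% over CpG-richer promoters and 26.6% over CpG-poor ones. Of 8 dopaminergic and serotonergic genes, 3 of them CpG-richer, Nr4a2, Pitx3 and Tph2 had a promoter DHS in both libraries. Th, Ddc and Fev had no call in any list. The 7 cerebellar genes, 5 of them CpG-richer, include Barhl1 and Pax2. Among them Cbln1 and Atoh1 had a promoter DHS in both libraries, and Ptf1a, Gabra6 and Pcp2 had no call. The part of such cells in the calls at the member loci was not tested.

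The last question was which sites away from the start sites were open. The stricter lists held 30 calls of replicate 1 and 36 of replicate 2 in the 9 loci, and 9 of each overlapped a call of the other library by at least 1 bp. They formed 9 shared DHSs, of which Lmx1b held 3, Lmx1a 2, and En1, En2, Barhl1 and Otx2 held 1 each. Gbx2, Pax2 and Pax3 held none. Over the genome, 59355 stricter calls of replicate 1 and 46566 of replicate 2 formed 26012 shared DHSs. The difference in agreement between these loci and the genome was not tested. At least 1 shared DHS was present in 6 of the 9 loci, against 81% of the loci of all genes, and at least 1 distal shared DHS in 6 of 9, against 54.2%. Distal means more than 1 kb from every start site of a protein-coding gene.

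The shared DHS with the highest mean percentile lay 93.4 kb downstream of the Lmx1b start, beyond the end of the gene, with 1.56 in replicate 1 and 5.97 in replicate 2. It was the highest of the 9 in replicate 2, while in replicate 1 the Lmx1a and Barhl1 DHSs described next were higher. Lmx1b specifies serotonergic and dopaminergic neurons and dorsal spinal cord. A neighbouring DHS at 96.9 kb had 0.995 and 2.26, and the last lay 49.8 kb upstream, near the edge of the locus, with 0.761 and 1.42. The first stood at percentile 83.7 of all distal shared DHSs in replicate 1 and 96.4 in replicate 2. Lmx1b also had 5 more stricter calls of replicate 2 alone, between 1.47 and 2.01, and 9 shared DHSs in the longer lists.

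Lmx1a held the next by that rank, 44.1 kb upstream, with 1.75 in replicate 1 and 3.96 in replicate 2. It stood at percentile 88.8 in replicate 1 and 89.2 in replicate 2. A weaker DHS in an intron, 113 kb from the start, had 0.621 and 1.44. The Barhl1 DHS, 7.42 kb upstream, had 1.64 and 2.12, and the En1 DHS in the last exon had 1.19 and 2.00. Both of these lay above the distal median in each library.

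The En2 and Otx2 DHSs were weak in both libraries. That of En2, 42.4 kb upstream, had 0.616 in replicate 1 and 1.05 in replicate 2. That of Otx2, 36.1 kb upstream of its longest transcript, had 0.481 and 1.04. They stood at percentiles 5.35 to 18.0 of distal shared DHSs. Over all 11430 distal shared DHSs the median was 0.962 in replicate 1, with quartiles of 0.724 and 1.33, and 1.80 in replicate 2, with quartiles of 1.21 and 2.71.

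**Figure D3:**
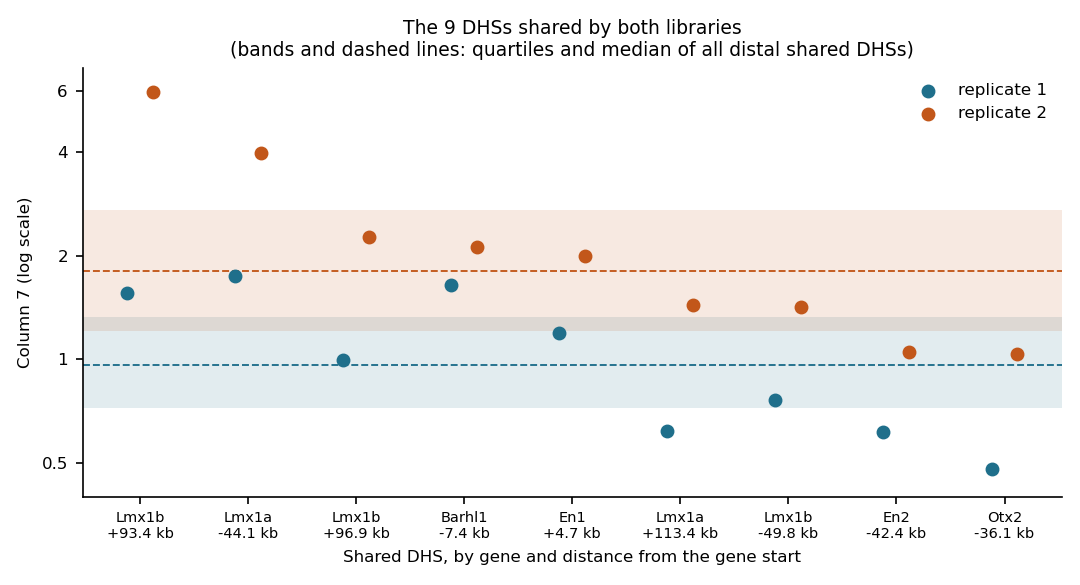
Points give column 7, on a log scale, of the 9 shared DHSs in replicate 1 and replicate 2, ordered by the replicate 2 value, with dashed lines at the medians and bands over the quartiles of all 11430 distal shared DHSs in the same library. The DHSs of Lmx1b at 93.4 kb and of Lmx1a at 44.1 kb lie above the band of their library in both replicates, and those of En2 and Otx2 lie below it in both.

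No common scale of column 7 was stated for the libraries, so values were ranked within each. The ratio of replicate 2 to replicate 1 ranged between 1.29 at Barhl1 and 3.84 at the 93.4 kb DHS of Lmx1b. Over all 26012 shared DHSs its median was 2.13.

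Calls of a single library made up most of the rest. Gbx2, which sets the front edge of the hindbrain, had 3 stricter calls, all in replicate 2 and all upstream. They had values of 1.63 at 9.39 kb, 1.24 at 12.3 kb and 1.57 at 37.2 kb. All 3 were shared in the longer lists, with replicate 1 values of 0.785, 0.817 and 0.607. The farthest overlaps a coding exon of the neighbouring gene Asb18 and holds 76 CpGs in 520 bp, a ratio of 1.10.

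Pax3 had 3 stricter calls in replicate 2, between 18.9 and 20.2 kb upstream, with values of 0.630, 0.922 and 1.04. Replicate 1 had no stricter call in that locus and a single longer-list call of 0.262 elsewhere, so Pax3 had no shared DHS in either kind of list. Pax2 showed the reverse. Its 8 stricter calls were all of replicate 1, between 0.117 and 0.430, near the end of the gene and beyond it. Of these, 6 had values under 0.3. The longer lists held 6 shared DHSs at Pax2, with 0.402 to 0.705 in replicate 1 and 0.567 to 0.733 in replicate 2.

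In the 9 loci, 14 of 30 stricter calls of replicate 1 lay under 0.3 and 0 of 36 of replicate 2. Over the genome 42.5% of the stricter calls of replicate 1 and 2.39% of those of replicate 2 lay under it. Those in the loci were the 6 at Pax2, 5 of 0.107 to 0.135 downstream of En2, and 3 in introns of Lmx1a. With them left out, and with the limit scaled to 0.638 in replicate 2, the number of shared DHSs was still 9.

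In En2 the gene body itself carried 6 stricter calls of replicate 2, from the promoter to 2.99 kb downstream, at 0.677 to 0.922. Replicate 1 had no stricter call there, and a longer-list DHS of 940 bp over the first exon was shared at 0.663 and 0.922. A longer-list DHS in the Otx2 gene body, shared at 0.635 and 0.630, reached to within 1 kb of a start site in replicate 2 alone. The only other protein-coding gene with a promoter call in these loci was Cnpy1, next to En2. Its calls there had 0.622 in replicate 2 and, in the longer list alone, 0.434 in replicate 1. The stricter replicate 1 call of Cnpy1, of 0.248, lay outside the locus.

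**Figure D4:**
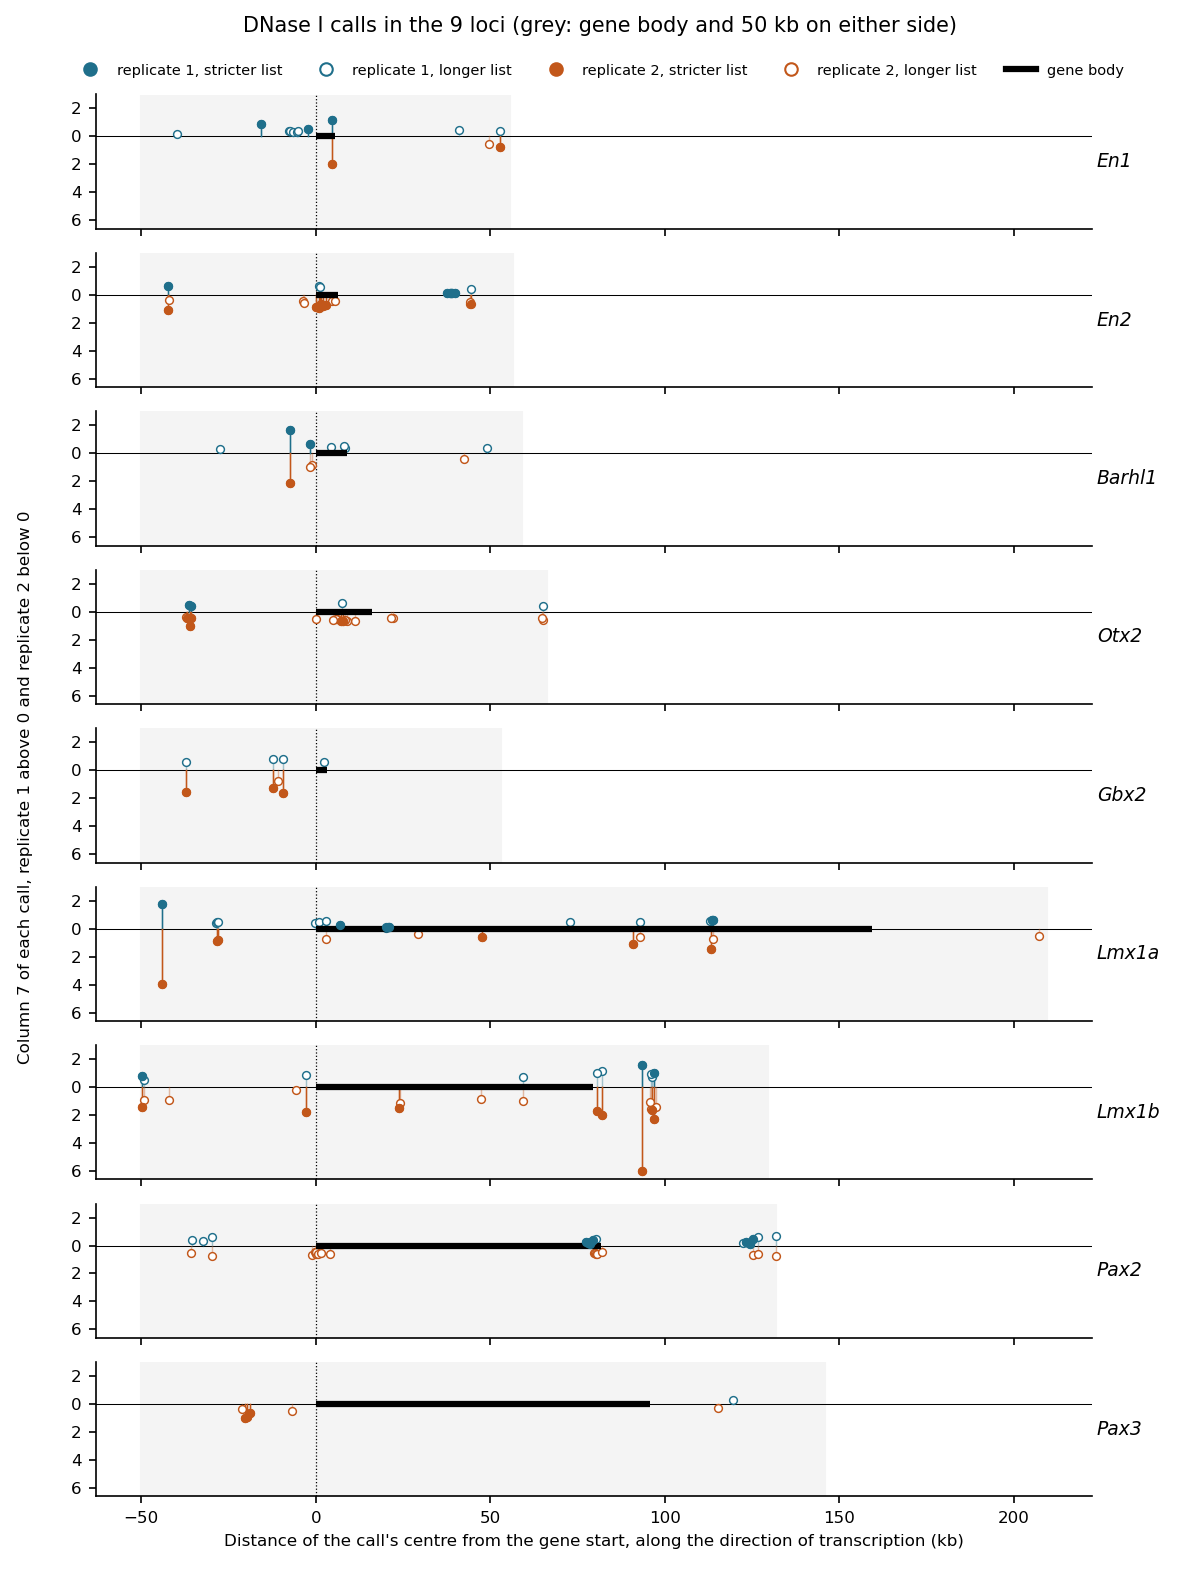
Each panel gives the calls of a locus by distance from the gene start in kb, with column 7 of replicate 1 drawn upward and of replicate 2 downward; filled circles are calls of the stricter lists, open circles calls of the longer lists, and the black bar is the gene body. Tall stems on both sides of the axis appear at 93.4 kb in Lmx1b and 44.1 kb upstream of Lmx1a, while the dotted line at each gene start has no tall stem.

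Counted per length, the 9 loci held 6.63 shared DHSs per Mb over 1.36 Mb, against 17.9 at other patterning genes, 25.8 at dorsal forebrain genes and 22.0 over the loci of all genes, where overlapping loci are counted each time. Looser counts were over 3 times higher, with 25.8 per Mb in the longer lists, 22.1 for the stricter calls of replicate 1 alone and 26.5 for those of replicate 2. Over all genes these were 32.3, 38.6 and 35.0 per Mb. For distal DHSs alone the values were 6.63, 10.01, 16.3 and 7.50 per Mb in the same order. The gap between the members and all genes thus lay mostly in DHSs within 1 kb of a start site. Such a start site can be that of the gene itself or of a neighbouring gene, and the part of each was not tested. The median number of distal shared DHSs per locus was 1 in the members and 1 in all genes.

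Footprints inside the 9 shared DHSs numbered 24 in replicate 1 and 37 in replicate 2, and 14 of those of replicate 1 overlapped one of replicate 2. At the 93.4 kb DHS of Lmx1b all 4 footprints of replicate 1 did so, and at the Lmx1a upstream DHS all 3. The share of overlapping footprints over all distal shared DHSs was not taken, so these counts have no background beside them. The widest were in that Lmx1a DHS, with 41 bp in replicate 1 and 47 bp in replicate 2, and then in the Barhl1 DHS, with 29 and 37 bp. Footprints over 40 bp made up 0.517% of all footprints of replicate 1 and 1.22% of those of replicate 2. In contrast, the intron DHS of Lmx1a had 4 footprints in each library with no overlap, and the En1 DHS had 0 in replicate 1 and 3 in replicate 2.

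Promoter footprints were listed for 5 of the 9 genes. Otx2, with 5 start sites, had 0 in replicate 1 and 17 in replicate 2. Pax2 had 0 and 13, En2 2 and 10, Barhl1 0 and 2, and Lmx1a 5 and 0. En1, Gbx2, Lmx1b and Pax3 had none. The medians of CpG-richer genes were 5 in replicate 1 and 8 in replicate 2.

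The letters of the shared DHSs were searched on both strands for a few short sequences. None of the 9 held TAATTA, the core bound by many homeodomains, TAATCC, which Otx proteins prefer, or CAGATG, an E-box of proneural factors, against 2.71%, 5.1% and 20.5% of distal shared DHSs. GGGCGG, the GC box, was in 1 of 9, the upstream DHS of Lmx1b, against 22.2%. The CTCF consensus was in none without a mismatch, against 19%. With at most 1 mismatch in its 12 bp it was in 1 of 9, under the wide footprint of the Lmx1a DHS printed above, against 46.2%. With at most 2 it was in 7 of 9, against 72.6%. In 4 of those 7, the Lmx1a and Barhl1 DHSs among them, the closest match overlapped a footprint in both libraries. No such share was taken over all distal shared DHSs. The mismatch counts were added after the printed sequences had been seen, and the median width of 214 bp was close to the 215 bp of all distal shared DHSs.

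In the 500 bp on either side of the gene start, GGGCGG was present in 8 of the 9 members, against 92% of CpG-richer genes. TAATCC was in 4 of 9 against 18.6%, TAATTA in 1 of 9 against 8.43%, CAGATG in 0 of 9 against 31.9%, and the CTCF consensus in 0 of 9 against 1.12%. With 9 genes these shares move by steps of 11.1 percentage points, and no test was made of them.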

How the data were processed

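DNase-seq of 2 mice was analysed from interval files that the authors deposited for each library apart, in mm10, per the file headers. Aligner, callers, versions and thresholds: not given in the sources used here. Each library has a pair of deposited peak lists with the authors' signal value of each call in column 7, of unstated scaling. The stricter lists held 59355 calls in replicate 1 and 46566 in replicate 2, the longer ones 92872 and 81087. Low signal values were whole multiples of 0.00467 in replicate 1 and 0.00788 in replicate 2, in 100% of cases within 0.05 of a step. If a step is 1 tag per 1000000, the libraries held 214 and 127 times 1000000 tags, a depth that no source states. The deposited cut-rate files hold the authors' false discovery rates (q-values) under 0.05. Footprint files carry the p-value 0.01 on every deposited line and were used as intervals.

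Genes and start sites came from the GENCODE M21 basic annotation on GRCm38, which mm10 names. Calls of both libraries that overlapped by 1 bp were merged into a shared DHS. CpG-rich extent joined windows of 200 bp with at least 50% GC and a CpG ratio of 0.6 or more, in steps of 10 bp. Percentiles were taken within a library. Shares stand beside those of all protein-coding genes with no test, because there is 1 group of 2 libraries and the members were picked by name. Members and gene lists were chosen with earlier results of these data known. All 9 members are named, with the 3 highest and the first 3 uncalled genes of 2 lists, genes of the same call pattern nearest in CpG ratio, and markers of other cell types; 2 of these genes are not reported here. Python 3.11.15, numpy 2.4.6 and matplotlib 3.10.9 were used, and the interval code was tested on simulated intervals.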

Additional observations from a re-analysis of the deposited data

How the results depend on the processing

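No paired analysis was possible because there is 1 group with 2 libraries and no comparison between groups of samples. Of 61 alternatives to 10 results, 33 left the value within 1.5 times of the one reported. Members with a promoter call in both libraries numbered 0, and 1 in the longer lists; by 1 library alone they numbered 0 to 2. Promoter windows of 0.5 and 2.5 kb, the gene start alone and a limit on low values gave 0 too. In the longer lists the other patterning genes numbered 17 in place of 11. With the gene start alone the dorsal forebrain genes numbered 8 in place of 13.

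Counts in the loci depended on the list, on the flanks and on requiring both libraries. The longer lists gave 35 shared DHSs, 32 of them distal, 25.8 per Mb and a median of 2 distal per gene. Flanks of 25 kb gave 5 shared, 5 distal and a median of 0; flanks of 100 kb gave 23 shared, 17 distal and 10.2 per Mb. A library alone gave 30 to 36 calls, 30 to 32 distal, 22.1 to 26.5 per Mb and a median of 3. Overlapping footprints numbered 6 in place of 14 where 50% of both had to overlap, and single libraries held 24 to 37. Members with a promoter base under a false discovery rate of 0.05 in both libraries numbered 3. By alternatives added after seeing the data they numbered 0 within 0.5 kb, 1 with a limit of 0.01, 0 with a limit of 0.001 and 4 by either library alone. The cause of these shifts was not tested. Depth is implied only, so a promoter without a call has no lower limit of detection in tags.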
